A study of Mus musculus with 6 samples.

Results

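The smooth muscle contractile genes examined here are 35 named genes: the smooth muscle actins, the myosin heavy and light chains, the kinase and phosphatase subunits that act on the light chain, the tropomyosins, the calponins and transgelins, other regulators of the thin filament, LIM domain proteins of actin bundles, and the cofactors of the transcription factor SRF. They were chosen by symbol. All 35 were listed among the 23337 genes of the count files, and all 35 passed the filter on low counts and were tested.

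The cells were basal epithelium from mouse mammary glands, sorted by flow cytometry as live cells that lack CD45 and CD31 and are low in CD24 and high in CD49f. There were 2 wild-type libraries (Vimwt/wt) and 4 Vim knockout libraries (homozygous for Vimtm1Cba), all from mice 15 weeks old of a 129/Sv X C57BL/6 background and from unpassaged cells. The allele was carried by the whole animal rather than by basal cells alone, and each library pooled 2 to 3 mice. Per the labels the cells were isolated in more than 1 experiment, with no sample assigned to either. File names carry a code that placed wild type 1 with knockout 1 and 2 (experiment 1 below) and wild type 2 with knockout 3 and 4 (experiment 2).

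Basal mammary cells are mostly myoepithelial cells, which surround the secretory epithelium and contract under oxytocin to eject milk. Contraction works as in smooth muscle: calcium and calmodulin activate myosin light chain kinase, the phosphorylated light chain lets myosin pull on actin, and a phosphatase reverses this. SRF drives many of these genes through the CArG box, a pair of C, a run of A or T and a pair of G, with myocardin or the actin-sensing MRTF proteins (Mkl1, Mkl2) as cofactors. Vimentin, the product of Vim, is an intermediate filament protein that links to actomyosin.

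Total counts ran from 25347967 to 31200622 per library. Vim itself was at 215 and 241 CPM (counts scaled to library size) in wild type and at 92.4, 105, 111 and 111 in knockout 1 to 4, a log2 difference (knockout minus wild type) of -1.12 (SE 0.12, edgeR adjusted p = 0.019), so every library matched its label, although reads of the gene remained. Of 14 basal markers all were tested, and their summed level per length was 24371 to 25123 TPM in wild type and 21507 to 26156 in knockout. By log2 difference 3 of the 14 lay above 0 and 11 below (median -0.10, against -0.01 over all genes tested). At an adjusted p under 0.05 edgeR called none of them, beside 0.079% of all genes. Wild type 1 held the most endothelial marker RNA, at 224 TPM summed over 10 genes. The sum was 77.3 TPM in wild type 2 and 43.8 to 63.0 TPM in the knockout libraries, below both wild types. All 10 genes had log2 differences below 0 (median -2.10). In 8 of 10 all knockout libraries lay below both wild types by CPM, beside 8.57% of all genes tested. At an adjusted p under 0.05 edgeR called none and DESeq2 called 7 of 10, beside 1.88% of all genes. The part of this RNA in the results was not tested.

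Promoters are shown first for a choice of the genes. Acta2 was the most abundant of the 35. In Myl9 and Cnn1 all knockout libraries lay above both wild-type libraries, as also in Myh10, which is not shown. Cnn2 has an exact CArG box, as have other genes named below. Pdlim3 differed between the experiments, as did Mkl1, which is not shown. Each window runs from 250 bases before to 50 bases after a transcription start in RefSeq (GRCm38.p6), 5′ to 3′ on the gene's strand, and capitals mark matches to the CArG box with at most 1 mismatch on either strand.
Acta2, minus strand, chr19:34255324-34255623: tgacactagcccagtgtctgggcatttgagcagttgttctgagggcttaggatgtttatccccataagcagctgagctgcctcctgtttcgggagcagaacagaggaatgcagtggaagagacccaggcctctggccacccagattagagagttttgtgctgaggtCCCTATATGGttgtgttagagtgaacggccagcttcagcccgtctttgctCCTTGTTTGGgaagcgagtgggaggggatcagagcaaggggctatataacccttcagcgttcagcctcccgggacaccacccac
Myl9, plus strand, chr2:156775214-156775513: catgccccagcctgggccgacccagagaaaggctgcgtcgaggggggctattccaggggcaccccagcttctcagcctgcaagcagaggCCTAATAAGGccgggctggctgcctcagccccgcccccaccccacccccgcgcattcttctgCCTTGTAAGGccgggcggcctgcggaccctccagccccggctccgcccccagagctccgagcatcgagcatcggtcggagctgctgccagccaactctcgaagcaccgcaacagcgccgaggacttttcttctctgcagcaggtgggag
Cnn1, plus strand, chr9:22099003-22099302: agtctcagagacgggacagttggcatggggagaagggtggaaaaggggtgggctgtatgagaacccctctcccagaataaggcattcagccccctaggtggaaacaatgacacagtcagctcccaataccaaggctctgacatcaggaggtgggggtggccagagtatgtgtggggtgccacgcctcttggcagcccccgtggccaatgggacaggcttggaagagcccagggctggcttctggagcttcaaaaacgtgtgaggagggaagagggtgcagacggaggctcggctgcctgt
Cnn2, plus strand, chr10:79988350-79988649: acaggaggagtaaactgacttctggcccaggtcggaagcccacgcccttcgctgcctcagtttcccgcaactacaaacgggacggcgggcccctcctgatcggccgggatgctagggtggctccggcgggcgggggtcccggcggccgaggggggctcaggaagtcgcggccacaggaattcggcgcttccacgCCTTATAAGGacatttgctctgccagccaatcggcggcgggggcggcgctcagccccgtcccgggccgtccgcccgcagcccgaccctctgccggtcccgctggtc
Pdlim3, plus strand, chr8:45885237-45885536: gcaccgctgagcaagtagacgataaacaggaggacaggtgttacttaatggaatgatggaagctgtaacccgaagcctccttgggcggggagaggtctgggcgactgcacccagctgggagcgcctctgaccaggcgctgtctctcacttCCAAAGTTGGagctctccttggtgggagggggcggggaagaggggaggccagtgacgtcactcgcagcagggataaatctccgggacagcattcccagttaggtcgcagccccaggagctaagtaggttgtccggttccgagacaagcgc

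The box CCTAATAAGG of Myl9 and the box CCTTATAAGG of Cnn2 match exactly, 161 and 56 bases upstream of the start, and Myl9 has a further box with 1 mismatch, while both boxes of Acta2 (CCCTATATGG and CCTTGTTTGG) and the single box of Pdlim3 (CCAAAGTTGG) each hold 1 mismatch. The window of Cnn1 holds no such match. No window was found for Actg2, Myh11, Tagln, Tgfb1i1 and Myocd, so these were not searched. RefSeq windows matched 30 of the 35 genes, with Mkl1 and Mkl2 found under newer symbols. Of these, 5 had an exact box (Myl6, Myl9, Cnn2, Fhl1 and Fhl2), which is 16.7% against 1.81% of the 27025 genes with a window. With 1 mismatch allowed the count was 13 of 30 (43.3%) against 23.8%. The sequence CATTCC, to which TEAD factors bind, occurred on either strand in 12 of 30 (40.0%) against 16.6%, among them Acta2 and Pdlim3. Some genes had several windows, and these matches are letters in a window and not measured binding.

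The basal level was high for most of these genes. Levels between genes are compared per length, as TPM computed from the counts and the deposited gene lengths. In wild type Acta2, the alpha-actin of smooth muscle, ranked 3 of 23337 genes, below only the basal keratins Krt17 and Krt14. Of the 35 genes, 5 were among the 50 highest in wild type (Acta2, Tagln, Csrp1, Tpm1 and Tpm2), 9 among the 100 highest, 21 among the 500 highest and 29 among the 5000 highest, and the counts in knockout were the same. Together the 35 genes held 2.98% of all TPM in wild type 1 and 2.97% in wild type 2. In knockout 1 to 4 they held 3.17%, 2.81%, 2.79% and 2.73%.

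**Figure D1:**
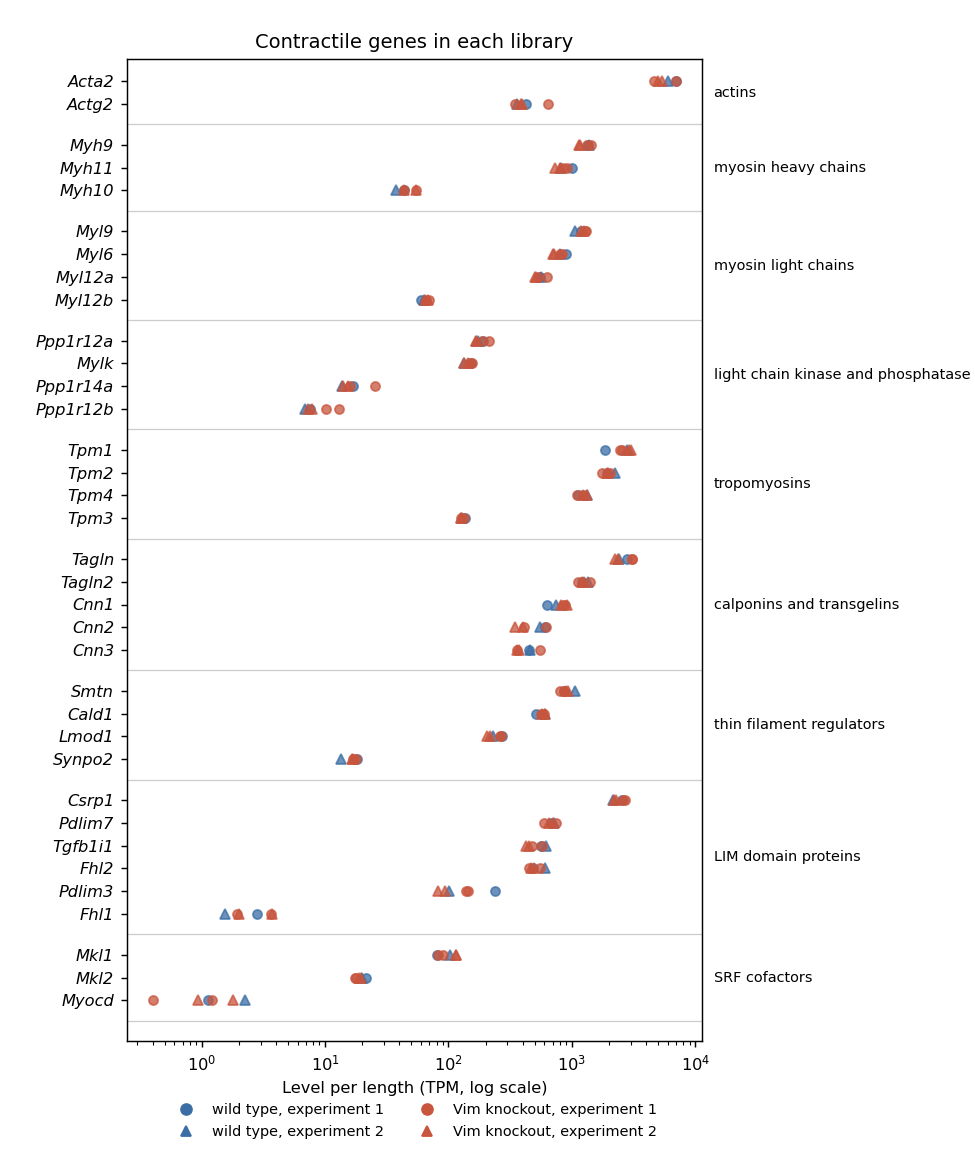
Level per length (TPM, log scale) of each of the 35 genes in each of the 6 libraries, grouped by role, with colour for genotype and marker shape for experiment. Acta2 lies highest and Fhl1 and Myocd lowest; for most genes the 6 points lie close together beside the distance between genes.

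The low end was as distinct. Myocd, which encodes myocardin, the cofactor that specifies smooth and cardiac muscle, was at 1.12 and 2.23 TPM in wild type and at 1.20, 0.402, 0.926 and 1.80 TPM in knockout 1 to 4, from 18 to 107 counts per library. It ranked 11961 in wild type. Fhl1, a LIM-only protein of striated muscle, ranked 11558, and Ppp1r12b, a targeting subunit of myosin phosphatase, ranked 9346. These genes, Ppp1r14a and Myl12b carried fewer than 1000 counts in each library, so counting error weighs more on them than on the rest.

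No gene of the set was called between knockout and wild type. By edgeR's quasi-likelihood test with Benjamini-Hochberg adjustment over all 13925 genes tested, 0 of 35 passed an adjusted p of 0.05, beside 11 genes (0.079%) overall. None was called higher, beside 0.0575% of all genes, and none lower, beside 0.0215%. Log2 differences (knockout minus wild type) ran from -0.64 for Myocd to 0.40 for Ppp1r12b. Of the 35, 16 lay above 0 and 19 below, with a median of -0.04 against -0.01 over all genes tested. At an unadjusted p under 0.05 there was 1 gene, Cnn1, where 8.57% of all genes passed. With the experiment as a replicate block the count was again 0, beside 1.56% of genes called, and the smallest adjusted p was 0.0767, for Pdlim3. DESeq2 (1.88% of genes called) and limma-voom (0.0718%) also called 0 of 35.

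How large a difference the data leave room for can be read from the intervals. The 95% interval of the fold change lay within 1.5-fold in either direction for 24 of the 35 genes and within 2-fold for 32. Those that reached past 2-fold were Pdlim3, Fhl1 and Myocd. Each interval is for 1 gene and is not adjusted for the number of genes. In these sorted pools, fewer cells of a type and less RNA per cell cannot be told apart. The labels do not say whether pools share animals. The p-values therefore set the genotype difference against the spread between libraries of the same genotype, and not between animals.

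**Figure D2:**
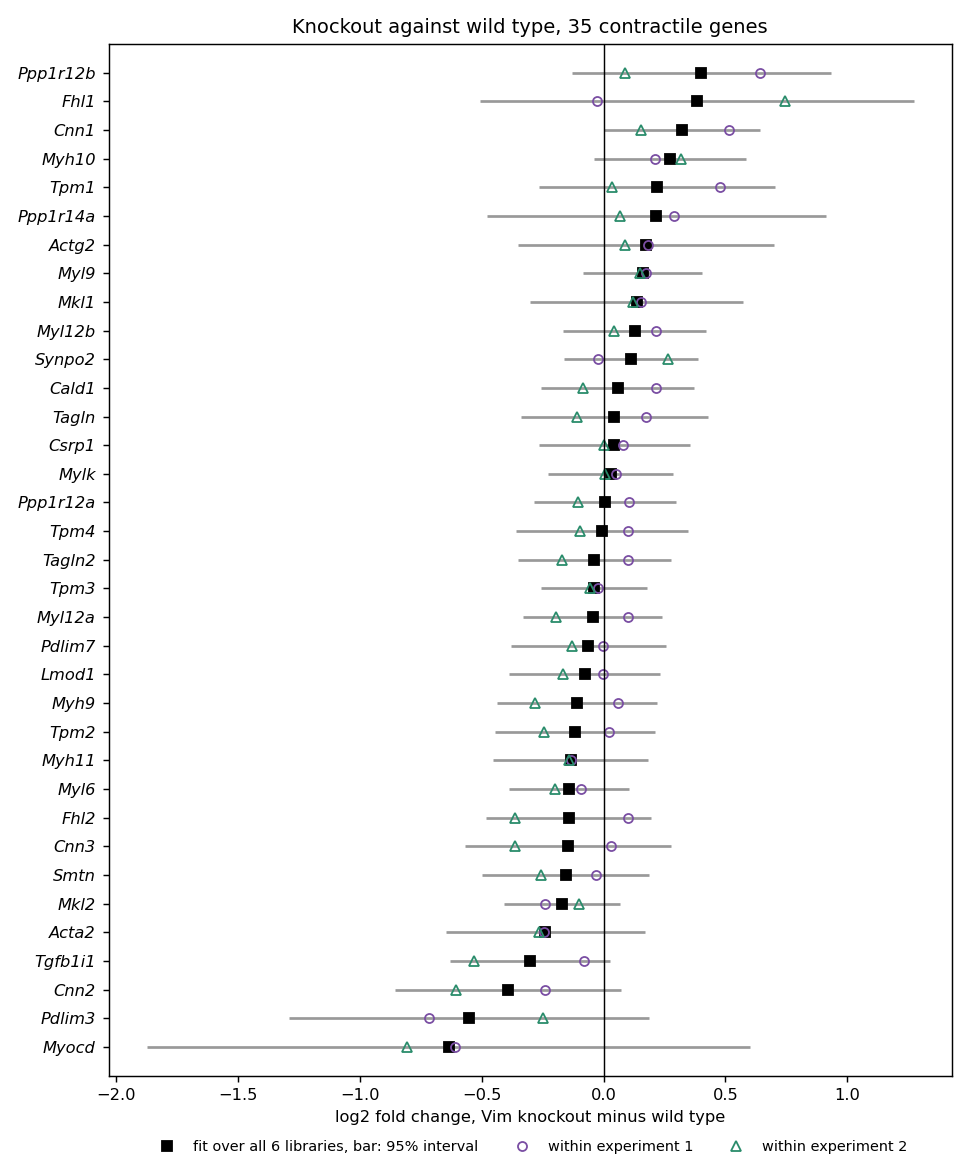
Log2 fold change, knockout minus wild type, for the 35 genes: squares with 95% intervals from the fit over all 6 libraries, and open symbols for the difference within each experiment. Values run from -0.64 (Myocd) to 0.40 (Ppp1r12b), and Cnn1 is the gene whose interval does not reach 0; no gene was called after adjustment.

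By CPM the genotypes did not overlap in 5 genes. All 4 knockout libraries lay above both wild-type libraries for Myh10, Myl9 and Cnn1, 3 of 35 beside 7.6% of all genes tested. All 4 lay below for Myl6 and Mkl2, 2 of 35 beside 8.57%. These counts are close to the shares over all genes. By TPM, Myl6 and Myh10 overlapped between the genotypes.

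The actins were led by Acta2. It was at 4126 and 3875 CPM in wild type 1 and 2 and at 4252, 2861, 3296 and 3157 CPM in knockout 1 to 4. Knockout 1 was the highest of the 6 libraries and the other knockout libraries lay below both wild types, so the groups overlapped. The log2 difference was -0.24 (SE 0.18, 95% interval -0.65 to 0.17, edgeR adjusted p = 0.844). Actg2, the enteric gamma-actin of smooth muscle, was lower, at 426 and 357 TPM in wild type and at 637, 348, 389 and 393 TPM in knockout, again with knockout 1 the highest.

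Acta2 made up 70.5% and 72.9% of the TPM of the 4 main actins in wild type and 66.5% to 70.8% in knockout. Actg2 made up 4.34% and 4.32% in wild type and 4.97% to 6.47% in knockout, without overlap, although its own TPM did overlap. The remainder was nearly all Actb, the cytoplasmic beta-actin, at 21.9% to 24.2% in wild type and 22.1% to 27.4% in knockout. Actg1, the cytoplasmic gamma-actin, gave at most 1.08% in each library, but 45.6% of its stretches of 50 bases and 39.4% of those of 100 bases also occur in other genes' transcripts. Read length is not given in the sources used here, so both lengths are illustrations. Multi-mapped reads were not counted, so its share is uncertain. With 2 against 4 libraries an exact permutation test has 15 splits and cannot reach 0.05, so shares are given without a test. In their own families the shares of Myh10, Tpm2 and Cnn2 also did not overlap between the genotypes. How often shares separate over all genes was not computed.

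**Figure D3:**
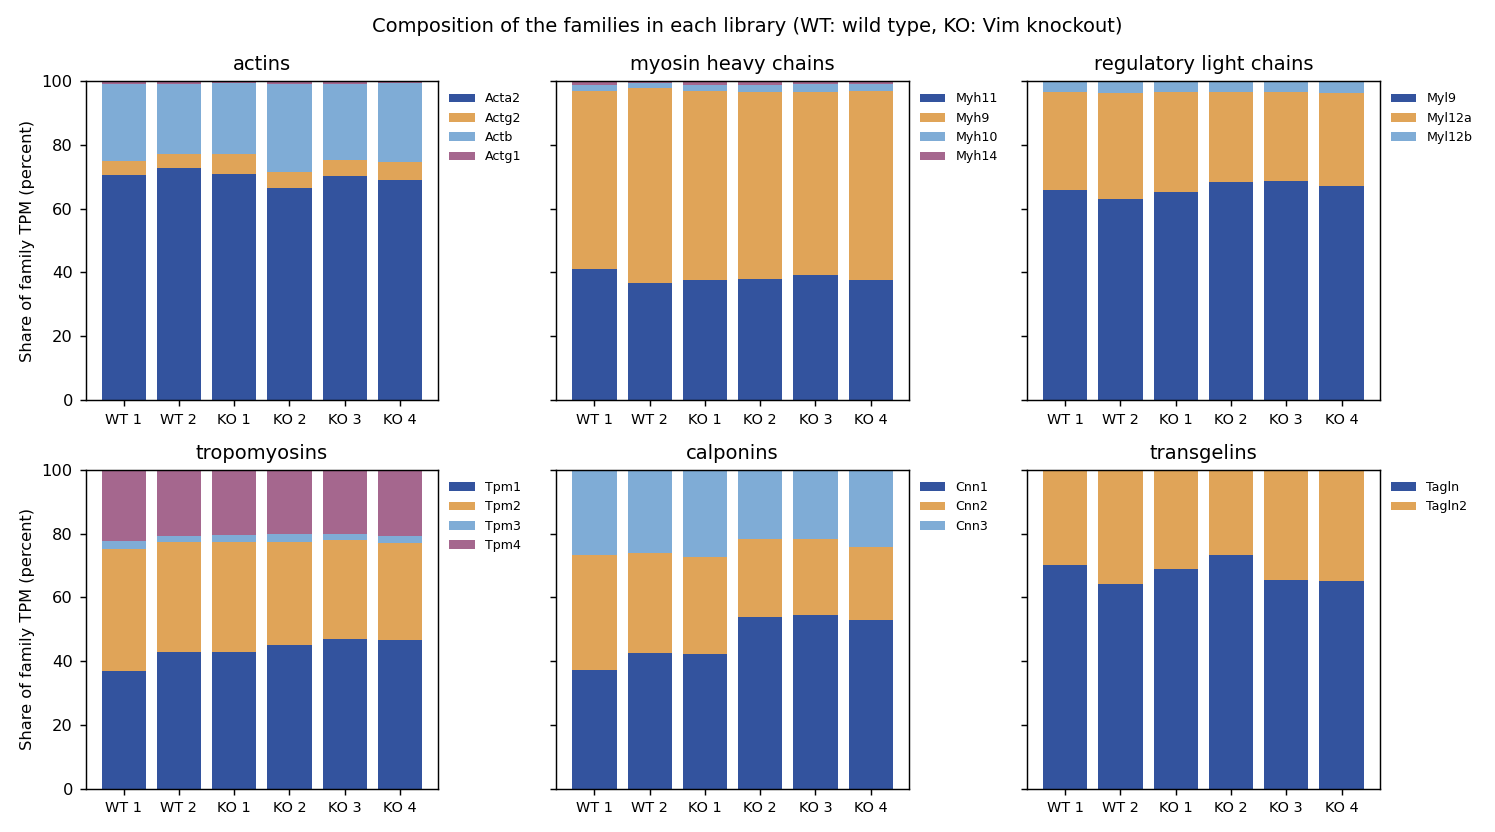
Share of each gene in the summed TPM of its family (percent) in each library; WT is wild type and KO is Vim knockout. Cnn1 holds 37.2% to 42.7% of calponin TPM in wild type and 52.9% to 54.4% in knockout 2 to 4, with knockout 1 at 42.1%.

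Among the myosin heavy chains the non-muscle chain Myh9 stood above the smooth muscle chain Myh11. Myh9 was at 3364 and 3654 CPM in wild type and 3373, 3636, 3005 and 3001 CPM in knockout 1 to 4, a log2 difference of -0.11 (SE 0.14, edgeR adjusted p = 0.944). Both knockout libraries of experiment 2 were the lowest, and those of experiment 1 lay within the wild-type range. Myh11 was at 2216 and 1964 CPM in wild type and 1938, 2111, 1847 and 1719 CPM in knockout (log2 difference -0.13, SE 0.14, adjusted p = 0.919), with overlap. Per length, Myh9 made up 55.9% to 61.2% of the heavy chains in the 6 libraries and Myh11 36.6% to 41.0%.

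Myh10, the other non-muscle heavy chain, was far lower per length, at 43.3 and 37.9 TPM in wild type. It was at 113 and 107 CPM in wild type and at 116, 147, 147 and 120 CPM in knockout 1 to 4. All knockout libraries were higher, knockout 1 by little, and the log2 difference was 0.27 (SE 0.14, 95% interval -0.04 to 0.58, edgeR adjusted p = 0.665).

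The light chains comprise the regulatory chains Myl9, Myl12a and Myl12b, which the kinase phosphorylates, and the essential chain Myl6. Myl9, the chain of smooth muscle, was the most abundant at 1184 and 1070 TPM in wild type. It was at 429 and 419 CPM in wild type and at 484, 483, 470 and 459 CPM in knockout 1 to 4. The knockout libraries lay close together above both wild types, by a log2 difference of 0.16 (SE 0.11, edgeR adjusted p = 0.798). Myl6 showed the reverse order, at 183 and 176 CPM in wild type and 169, 176, 150 and 158 CPM in knockout (log2 difference -0.14, SE 0.11, adjusted p = 0.849).

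Myl12a and Myl12b are adjacent on the minus strand of chromosome 17 (70993793 to 71002533 and 70973963 to 70990516 on mm10), and their coding sequences are 96.5% identical. The last 140 coding bases, printed from the GENCODE vM21 transcripts with the 1 differing base of the stretch in capitals, show how alike they are. The final 105 bases are identical.
Myl12a, coding bases 380 to 519: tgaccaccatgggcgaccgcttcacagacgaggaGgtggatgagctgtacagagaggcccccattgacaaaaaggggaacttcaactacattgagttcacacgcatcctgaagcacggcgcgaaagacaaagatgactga
Myl12b, coding bases 380 to 519: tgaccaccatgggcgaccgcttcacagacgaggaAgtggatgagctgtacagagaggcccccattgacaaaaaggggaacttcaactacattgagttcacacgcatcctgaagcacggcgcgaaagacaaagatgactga

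Myl12a was listed at 554 and 568 TPM in wild type and 507 to 625 TPM in knockout, and Myl12b at 59.7 and 62.8 TPM and at 64.6 to 69.4 TPM. The groups did not overlap for Myl12b by TPM but did by CPM, where wild type 2 was above knockout 2 and 3. Since reads that fit both genes are not counted, the ratio between these chains is uncertain. The same caution holds for Tpm3, Myl6, Cnn3 and Tpm4, which share 40.0%, 16.7%, 14.1% and 12.1% of their stretches of 50 bases with other genes (27.6%, 7.06%, 1.24% and 7.64% of stretches of 100 bases), mostly processed pseudogenes or, for Tpm3, the related sequence Tpm3-rs7. No member overlaps an exon of another gene on the same strand.

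The light chain kinase and the phosphatase subunits of the set were much lower per length than Myl9, though Mylk and Ppp1r12a were above Myl12b. Mylk, the light chain kinase, was at 152 and 134 TPM in wild type and 133 to 156 TPM in knockout, and Ppp1r12a, the myosin-targeting subunit of the phosphatase, at 192 and 175 TPM and 166 to 214 TPM. For Ppp1r12a, CPM was 218 and 215 in wild type and 218, 252, 199 and 201 in knockout 1 to 4. Knockout 2 was the highest library, knockout 1 lay level with wild type 1 and the knockout libraries of experiment 2 were lowest, and the log2 difference was 0.01 (SE 0.13, edgeR adjusted p = 0.999).

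Ppp1r12b had the highest log2 difference of the 35 genes. It was at 15.6 and 15.4 CPM in wild type and at 21.7, 27.5, 15.6 and 17.2 CPM in knockout 1 to 4, so the excess lay in the knockout libraries of experiment 1. The log2 difference was 0.40 (SE 0.23, 95% interval -0.13 to 0.93, edgeR adjusted p = 0.740), or 0.64 within experiment 1 and 0.09 within experiment 2. Ppp1r14a, which encodes the phosphatase inhibitor CPI-17, had only 68 to 148 counts per library, with knockout 1 the highest.

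The tropomyosins, which wind along the actin filament, were led per length by Tpm1 in the mean of the wild types, although Tpm2 was higher in wild type 1. Tpm1 was at 2029 and 3308 CPM in wild type 1 and 2 and at 2876, 2775, 3291 and 3489 CPM in knockout 1 to 4. Wild type 1 was the lowest library by a wide margin, while wild type 2 lay among the knockout libraries. The log2 difference was 0.22 (SE 0.21, 95% interval -0.26 to 0.70, edgeR adjusted p = 0.910), which moved to 0.62 when wild type 2 was left out and to -0.07 when wild type 1 was.

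Tpm2 was at 1345 and 1691 CPM in wild type and 1468, 1271, 1395 and 1464 CPM in knockout (log2 difference -0.12, SE 0.14, edgeR adjusted p = 0.935), and Tpm4, a short non-muscle form, at 775 and 1008 CPM and 875, 790, 895 and 991 CPM (-0.01, SE 0.15, adjusted p = 0.999). In both the groups overlapped. As a share of tropomyosin TPM, Tpm1 was at 36.9% and 43.02% in wild type and 42.98% to 46.8% in knockout, with overlap. Tpm2 was at 38.2% and 34.37% against 30.6% to 34.29%, without overlap by a narrow margin. Tpm3 had the smallest spread of the 35 genes, at 115 to 123 CPM over the 6 libraries.

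**Figure D4:**
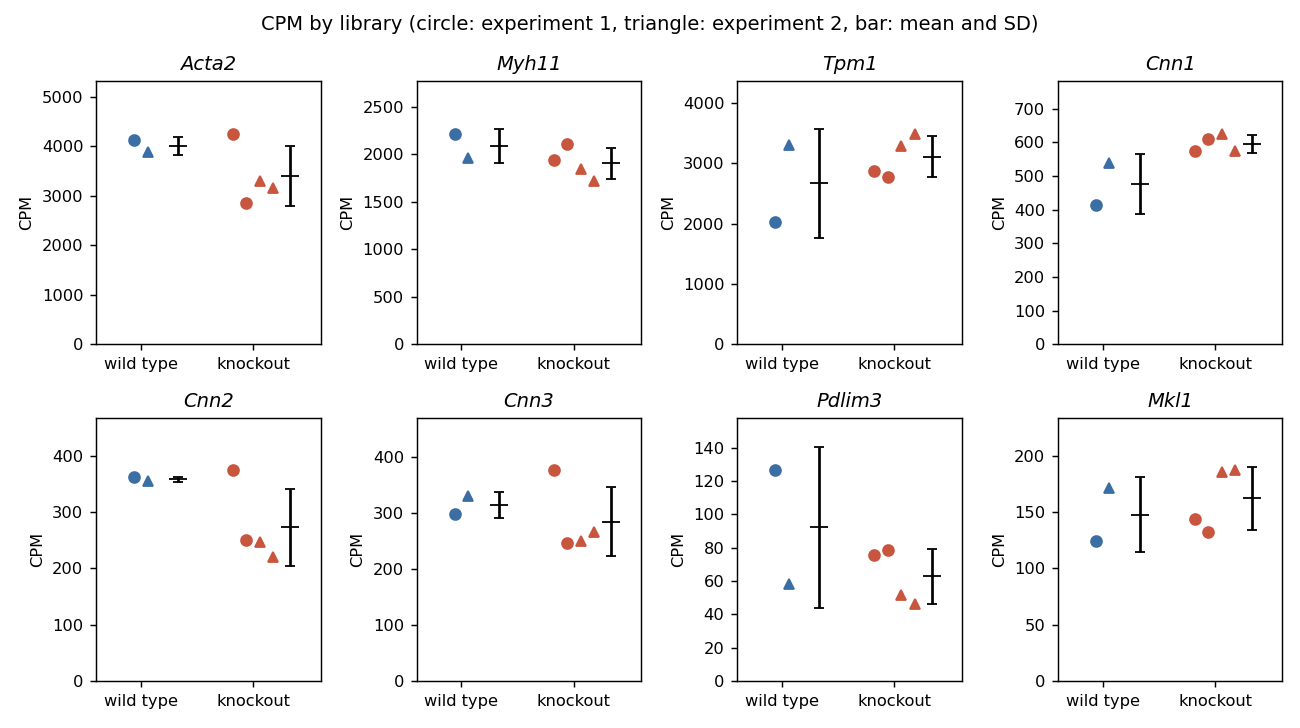
CPM of 8 genes in each library on axes that start at 0, with the mean and SD of each group (n = 2 and 4). Cnn1 is higher in all knockout libraries; in Acta2, Cnn2 and Cnn3 knockout 1 stands above the other knockout libraries; Pdlim3 and Mkl1 divide by experiment (circles and triangles).

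The calponins bind actin and slow the myosin cycle. Cnn1, the basic calponin of smooth muscle, was at 414 and 539 CPM in wild type 1 and 2 and at 575, 609, 626 and 573 CPM in knockout 1 to 4. All knockout libraries were higher than both wild types, and the gap between the wild types was wider than the whole knockout range. The log2 difference was 0.32 (SE 0.14, 95% interval 0.0035 to 0.64), with an edgeR p of 0.0481 and an adjusted p of 0.578, or 0.234 with the replicate block. Leaving out wild type 1 gave 0.16, and leaving out wild type 2 gave 0.53.

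Cnn2 ran the other way, at 361 and 355 CPM in wild type and 374, 251, 248 and 220 CPM in knockout 1 to 4. Knockout 1 was the highest library and the other knockout libraries lay well below both wild types. The log2 difference was -0.39 (SE 0.20, 95% interval -0.85 to 0.07, edgeR adjusted p = 0.682). Cnn2 was called under 1 setting, the replicate block without knockout 1, with a log2 difference of -0.55 (SE 0.10, edgeR adjusted p = 0.00743). In that fit 940 genes (6.84%) were called and Cnn2 was the only one of the 35. Cnn3, the acidic calponin, also had knockout 1 highest and knockout 2 to 4 below both wild types, with 299 and 331 CPM in wild type and 376, 247, 250 and 266 CPM in knockout (log2 difference -0.15, SE 0.18, adjusted p = 0.939).

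Summed calponin TPM was 1675 and 1758 in wild type and 2004, 1651, 1666 and 1532 in knockout 1 to 4. Cnn1 held 37.2% and 42.7% of it in wild type and 42.1%, 53.7%, 54.4% and 52.9% in knockout 1 to 4, so knockout 1 lay within the wild-type range. Cnn2 held 36.2% and 31.3% in wild type and 30.5%, 24.6%, 24.0% and 22.7% in knockout.

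The transgelins are calponin relatives. Tagln (SM22), a classic SRF target, was at 1489 and 1382 CPM in wild type and at 1669, 1694, 1292 and 1270 CPM in knockout 1 to 4. Both knockout libraries of experiment 1 were above, and both of experiment 2 below, the wild-type values, and the log2 difference was 0.04 (SE 0.17, 95% interval -0.34 to 0.43, edgeR adjusted p = 0.984). Tagln2, its more widely expressed relative, was at 555 and 670 CPM in wild type and 537 to 660 CPM in knockout (-0.04, SE 0.14, adjusted p = 0.984).

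Of the other thin filament regulators, Smtn, which encodes smoothelin, was the highest per length at 871 and 1058 TPM in wild type. It was at 987 and 1296 CPM in wild type and 923, 1009, 1087 and 1080 CPM in knockout 1 to 4. Knockout 2 to 4 lay between the wild types and knockout 1 below them (log2 difference -0.15, SE 0.15, edgeR adjusted p = 0.909). Cald1 (caldesmon) was at 697 and 884 CPM in wild type and 789 to 871 CPM in knockout. Lmod1, the smooth muscle leiomodin that nucleates actin, was at 357 and 328 CPM and at 289 to 362 CPM. Synpo2, an actin-bundling protein of the Z-disc and dense body, was low, at 34.9 to 43.2 CPM over all libraries.

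LIM domain proteins occupy actin bundles and focal adhesions. Csrp1, a binding partner of alpha-actinin, ranked 27 of all genes in wild type. It was at 1522 and 1389 CPM in wild type and 1577, 1641, 1401 and 1385 CPM in knockout 1 to 4, which overlapped (log2 difference 0.04, SE 0.14, edgeR adjusted p = 0.977). Tgfb1i1 (Hic-5), a focal adhesion adaptor, was at 574 and 671 CPM in wild type and 591, 499, 473 and 457 CPM in knockout. Its knockout 2 to 4 lay below both wild types and knockout 1 between them, a log2 difference of -0.30 (SE 0.14, 95% interval -0.63 to 0.03, adjusted p = 0.626). Pdlim7 (608 to 776 CPM) and Fhl2 (245 to 340 CPM) overlapped between genotypes, and Fhl1 had 42 to 110 counts per library.

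Pdlim3, an alpha-actinin-associated LIM protein, was at 126 and 57.9 CPM in wild type 1 and 2 and at 75.3, 78.6, 51.5 and 46.0 CPM in knockout 1 to 4. All libraries of experiment 1 were above all libraries of experiment 2, and within each experiment the wild type was highest. The genotype difference was -0.55 in log2 units (SE 0.32, edgeR adjusted p = 0.743) and depended on the wild types: leaving out wild type 1 gave 0.14 and leaving out wild type 2 gave -1.0. With the replicate block it was -0.49 (adjusted p = 0.0767).

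Of the SRF cofactors, Mkl1 (MRTF-A) made up 78.1% and 82.2% of the cofactor TPM in wild type and 82.1% to 85.1% in knockout, and Mkl2 (MRTF-B) most of the rest. Mkl1 was at 124 and 171 CPM in wild type and at 144, 132, 185 and 187 CPM in knockout 1 to 4, with all libraries of experiment 2 above all of experiment 1. Its log2 difference by genotype was 0.14 (SE 0.19, edgeR adjusted p = 0.951). Mkl2 was at 64.5 and 64.9 CPM in wild type and 54.3, 54.8, 60.5 and 60.5 CPM in knockout, lower in 4 of 4 libraries with a log2 difference of -0.17 (SE 0.10, edgeR 95% interval -0.41 to 0.07, adjusted p = 0.763). Myocd had a log2 difference of -0.64 (SE 0.54, 95% interval -1.87 to 0.60, adjusted p = 0.880), with the highest value in wild type 2 and the lowest in knockout 2. Leaving out wild type 2 gave 0.01 and leaving out wild type 1 gave -1.07.

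Between the experiments, with genotype in the model, 2 of the 35 genes were called, 5.71% beside 6.43% of all genes tested. Pdlim3 was lower in experiment 2 by a log2 difference of -0.82 (SE 0.12, edgeR adjusted p = 0.00596), 1 of the 3.04% of genes called lower. Mkl1 was higher by 0.44 (SE 0.09, adjusted p = 0.0184), 1 of the 3.39% called higher. The difference of Pdlim3 was -1.13 in wild type and -0.66 in knockout, and that of Mkl1 was 0.46 and 0.43. Without knockout 3 and without knockout 4 Mkl1 was not called (adjusted p = 0.0707 and 0.121). Without knockout 1, where 13.4% of genes were called, Tpm1 (0.46, adjusted p = 0.0380) and Myocd (1.43, adjusted p = 0.0376) were called too.

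The test of whether the genotype difference itself differed between the experiments called 0 of 35 genes, beside 0% of all genes, and the smallest adjusted p in the set was 0.998. At an unadjusted p under 0.05 edgeR gave 1 gene, Pdlim3 (0.047). With 1 wild-type library per experiment this test has little to estimate the spread from.

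**Figure D5:**
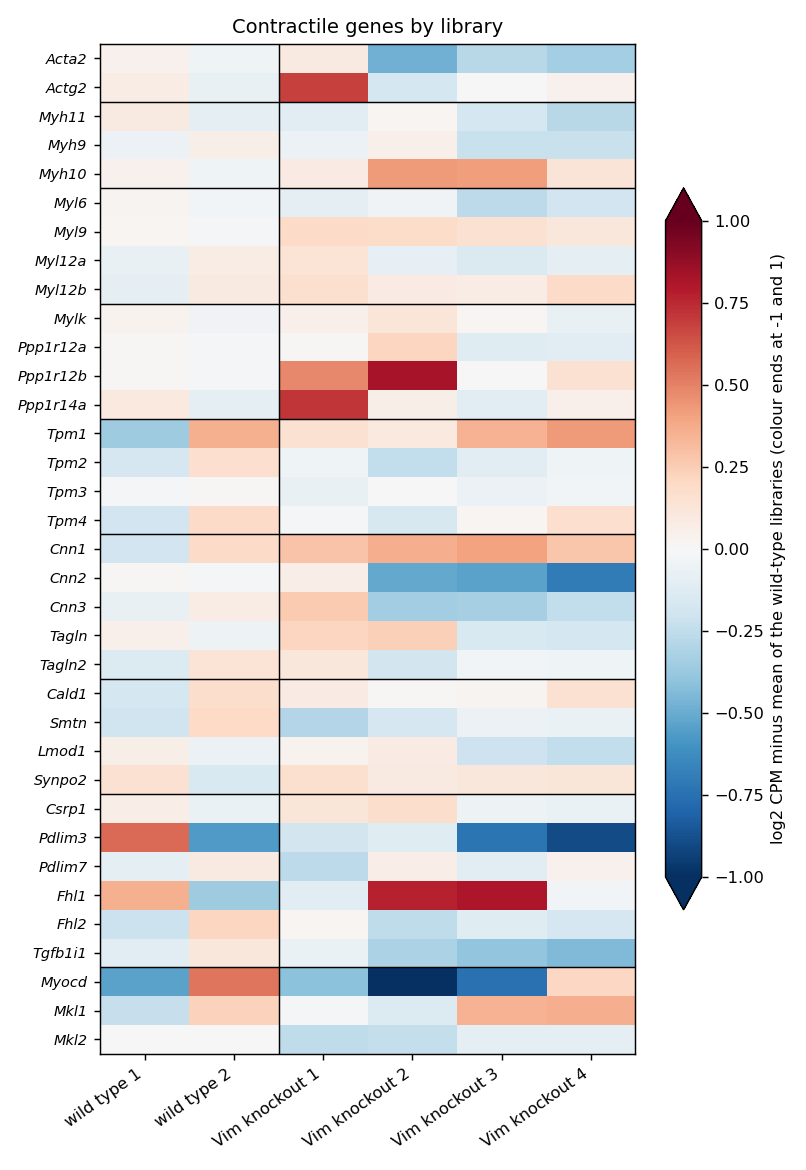
Log2 CPM of each gene in each library minus the mean of the wild-type libraries, with rows ordered by role and lines between roles. Rows differ in pattern: Tpm1, Pdlim3, Fhl1 and Myocd differ most between the wild types themselves, and Mkl1, Fhl2, Smtn and Cnn1, among others, differ by less. Knockout 1 stands above the other knockout libraries for Actg2, Ppp1r14a, Cnn2 and Cnn3.

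Across the 6 libraries the genes did not share 1 pattern. The highest library was wild type 2 for 12 genes, knockout 1 for 8, knockout 2 for 7, wild type 1 and knockout 4 for 3 each and knockout 3 for 2. The ratio of the highest to the lowest library (of CPM) was under 1.5 for 24 genes. It was over 2 for Pdlim3 (2.74), Fhl1 (2.29) and Myocd (5.79).

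Genes around the contractile machinery were read from lists of the same pathway, and none was called by genotype alone with edgeR. Of 20 tested partners and regulators of SRF, 9 lay above 0 and 11 below (median -0.02). With the block 1 of 20 fell, beside 1.56% of all genes called: the zinc-finger factor Klf5, from 112 and 93.2 CPM to 92.1, 75.8, 60.2 and 62.5 CPM (log2 difference -0.51, SE 0.11, edgeR adjusted p = 0.0487). Klf4, a repressor of smooth muscle genes in vascular cells, had a log2 difference of 0.49 (SE 0.21, adjusted p = 0.577) and Prkd1 of 0.40 (SE 0.18, adjusted p = 0.587), both without the block. Wild type 1 was the lowest library for Klf4, at 545 CPM against 886 in wild type 2.

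Among 34 tested actin crosslinkers and dense body genes, 14 lay above 0 and 20 below (median -0.05). With the block 1 of 34 rose, beside 1.56% of all genes called: the adaptor Sorbs2, from 7.73 and 5.08 CPM to 14.4, 13.2, 17.7 and 12.8 CPM (log2 difference 1.19, SE 0.22, edgeR adjusted p = 0.0322, or 0.181 without it). DESeq2 called 2 of 34, Sorbs2 and Tmod2, beside 1.88% of all genes. Tmod2, a tropomodulin, had a log2 difference of 1.33 (SE 0.34, adjusted p = 0.273) at 1.31 to 5.31 CPM, and Fblim1 (migfilin) one of -0.40 (SE 0.13, adjusted p = 0.382). The other 4 actins all lay below 0 (median -0.33, or -0.53 to -0.05 leaving out 1 library each), with Actb at -0.12 (SE 0.14, adjusted p = 0.933), Actg1 at -0.37 (SE 0.15, adjusted p = 0.533) Acta1 at -0.30 (SE 0.41, adjusted p = 0.951) and Actc1 at -0.45 (SE 0.78, adjusted p = 0.959). Acta1 had 14 to 29 counts per library and Actc1 1 to 18. Of 8 other myosin chains and kinases only 3 had counts enough to be tested: Myh14 (0.14, SE 0.37), Myl6b (0.53, SE 0.39) and Myl4 (-0.03, SE 0.39), with adjusted p-values of 0.970, 0.835 and 0.998.

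Contractile genes are also made by vascular smooth muscle and pericytes. The summed TPM of 15 markers of these cells was 473 to 548 in wild type and 617 to 726 in knockout, most of it from Mcam and Ano1. All knockout libraries lay above both wild types in this sum. Without Mcam and Ano1, the sum of the remaining 13 was 45.4 and 27.9 TPM in wild type 1 and 2. In knockout 1 to 4 that smaller sum was 27.2, 33.7, 32.0 and 23.4 TPM, so the groups overlapped. Of the 14 markers tested, 2 lay above 0 and 12 below (median -0.33), and 1 was called with the replicate block, beside 1.56% of all genes. Mcam, an adhesion molecule, was at 253 and 263 TPM in wild type and at 390, 464, 495 and 474 TPM in knockout 1 to 4. Its log2 difference was 0.82 (SE 0.14, edgeR adjusted p = 0.154), and with the block it was called higher (0.82, SE 0.11, adjusted p = 0.00940). The part of these markers in the results was not tested. Skeletal muscle markers summed to 6.90 to 11.4 TPM over the 6 libraries and leukocyte markers to 51.3 to 90.9. Fibroblast markers summed to 136 to 159 TPM in wild type and 103 to 155 in knockout, and all 9 tested lay below 0 (median -0.24). Luminal markers summed to 2542 to 3049 TPM in wild type and 2615 to 3253 in knockout. Of 12 luminal markers, 7 lay above 0 and 5 below (median 0.20). In both lists edgeR called none, beside 0.079% of all genes, and their part in the results was not tested. None of these lists had a marker at 0 in every library.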

How the data were processed

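The authors deposited whole-number counts of reads per gene. Per the file headers these came from featureCounts 1.5.1, run reverse-stranded (option 2) over exons annotated on mm10. Multi-mapped reads and reads over several genes were not counted, so near-identical genes are uncertain. Alignment used STAR 2.5.2b and base calling bcl2fastq 2.17, per the submitters' processing notes. The gene lengths used here for TPM were deposited beside the counts.

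The comparison used edgeR 4.0.16 in R 4.3.3: filterByExpr kept 13925 genes and set 9412 aside, TMM scaled the libraries, and genotype was the only term (glmQLFit, robust; glmQLFTest, 2-sided; Benjamini-Hochberg adjusted p under 0.05 over all genes). Intervals are 95%. CPM is on the TMM scale, and log2 CPM used a prior count of 2. DESeq2 1.42.0, limma-voom (limma 3.58.1), other scaling, 2 filters, left-out libraries and a replicate block were alternatives. The code was tested on simulated data.

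The members and lists were chosen with earlier results of these data known. All members are named; a value in every library is given for those called in any fit or between experiments and for the highest and the lowest-p member of each role, and for further members beside them. Of each pathway list in the text, the 3 genes with the lowest p are named; 1 list is not reported here.

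The experiment code, not the title number, was used for pairing: deviations from the group means correlated across genes within experiments (r = 0.32, 0.29, 0.25 and 0.41) and mirrored these across them, as 2 wild types must. RefSeq promoters (GRCm38.p6) and GENCODE vM21 transcripts gave the sequences; coordinates of genes are those deposited, on mm10.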

Additional observations from a re-analysis of the deposited data

Results flagged for a closer look

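Knockout 1 stood apart from the other 3 knockout libraries in 2 of the 35 genes by Dixon's test for a single outlying value among 4. For Cnn3 the gap to the next library was 0.856 of the range of the 4 CPM values, and for Ppp1r14a it was 0.837. Knockout 1 was the high library in both. Chance alone flags about 1 in 20 such groups, and 35 were examined. Ppp1r14a rests on 74 to 148 counts in the knockout libraries.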

How the results depend on the processing

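None of the 35 genes was called under any of the 12 planned settings of the genotype comparison, where the smallest adjusted p was 0.0767 by edgeR; of the 7 added settings, 1 gave 1 called gene (Cnn2, the replicate block without knockout 1). The genes kept their sign in all planned settings for 16 of 35, and 19 changed sign in at least 1; none of these was called. The median log2 fold change of the set was -0.03 with the replicate block and -0.06 to 0.03 leaving out 1 library each (-0.0597 without wild type 1 and 0.0319 without wild type 2). Over all genes, 8 were called higher and 3 lower; the counts were 3 higher with at least 10 counts in each library, 156 and 61 with the replicate block, 164 and 101 by DESeq2, and 3 to 10 higher and 0 to 8 lower leaving out 1 library each. Between the experiments the set's count of 2 ran from 1 to 4 leaving out 1 knockout library each. The block by title number (wild type 1 and 2, knockout 1 and 2) called 0 of the 35, and these numbers do not pair: the deviations of wild type 2 and knockout 2 correlated at -0.29. With 2 wild-type libraries, differences as large as those within the intervals given could be missed. The intervals are not a limit of detection, because a call also required adjustment over all 13925 genes tested. For Myocd, Fhl1 and Ppp1r14a low counts add to the uncertainty.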
